A study of Mus musculus with 9 samples.

Results

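The 10 genes described here encode C-type lectin receptors of myeloid cells: Clec4n, Clec4d, Clec4e, Clec7a, Clec12a, Clec4a1, Clec4a2, Clec4a3, Clec10a and Mgl2. They were taken by symbol from a table of 24607 genes, all 10 were present, and all 10 were among the 16328 genes tested. The cells were bone marrow-derived macrophages of CX3CR1-gfp/+ mice, which carry a green fluorescent protein allele at the fractalkine receptor locus, and every group was differentiated with 50 ng/ml M-CSF, labelled with a time of 5 days, and sorted on CD11b and CD64 before RNA was taken. One group was co-cultured with dorsal root ganglion (DRG) sensory neurons, one was given TGF-β at 0.02 ng/ml, and one was kept in monoculture, with 3 samples in each. The series title names sensory neurons and TGF-β as the source of local macrophage identity. The comparisons set each exposure against monoculture and against the other. The design text names 3 mice. Whether each mouse gave a sample to every group is not stated, so p-values measure the spread between these samples.

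C-type lectin receptors are membrane proteins that recognise sugars, lipids or proteins on microbes and on host cells. Clec4n (Dectin-2), Clec4e (Mincle) and Clec4d (MCL, which pairs with either of them) signal through the adaptor Fcer1g to the kinase Syk, and Clec7a (Dectin-1, the β-glucan receptor) reaches Syk through a motif of its own. Card9, Bcl10 and Malt1 then carry the signal to NF-κB. Clec12a and Clec4a2 carry an inhibitory motif that recruits the phosphatases Ptpn6 and Ptpn11, and Clec10a and Mgl2 are endocytic receptors for galactose-type sugars that are often used to mark macrophages exposed to interleukin 4.

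The genes lie in 3 groups of the mm10 genome, by GENCODE M21 positions of the files' identifiers. On chromosome 6 the Clec4 cluster runs on the plus strand through Clec4a1 (ENSMUSG00000049037, 122921848 to 122934619), Clec4a3 (ENSMUSG00000043832, 122952515 to 122969875), Clec4a2 (ENSMUSG00000030148, 123106428 to 123143999), Clec4n (ENSMUSG00000023349, 123229843 to 123247021) and Clec4d (ENSMUSG00000030144, 123262111 to 123275265), and ends with Clec4e on the minus strand (ENSMUSG00000030142, 123281789 to 123289870). Clec12a (ENSMUSG00000053063, 129342691 to 129365303, plus strand) and Clec7a (ENSMUSG00000079293, 129461591 to 129472779, minus strand) lie farther along the same chromosome, and M21 lists Clec7a as a polymorphic pseudogene, a class for genes that are intact in some strains. Mgl2 (ENSMUSG00000040950, 70130329 to 70137550) and Clec10a (ENSMUSG00000000318, 70156197 to 70170834) lie close together on the plus strand of chromosome 11. Of the 50-base windows in annotated Mgl2 transcripts 12.2% also occurred in Clec10a and 8.49% of those of Clec10a in Mgl2, so the split of reads between them is uncertain. Clec10a had more reads than Mgl2 in every sample, such as 577 against 8 in co-culture 1 and 706 against 94 in monoculture 1. How shared reads were counted is not given, so the uncertainty of Mgl2 can exceed its share of windows. By the same windows, 6.69% of those of Clec4a2 occurred in other genes and 0 of those of Clec4d, Clec4e, Clec4a1, Clec4a3 and Clec7a did.

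The bases upstream of the transcription start were read for the members from the RefSeq promoter table (GRCm38.p6, the assembly of mm10), which held 8 of the 10; Clec4n and Clec10a were not among them. The 250 upstream bases are shown for Clec7a (chr6:129472780-129473029, minus strand), Clec4d (chr6:123261857-123262106, plus strand), Clec4e (chr6:123289872-123290121, minus strand) and Clec4a1 (chr6:122921598-122921847, plus strand), the members that passed a test below and whose window held 0 bases of an annotated exon. Capitals mark letters matching any of 5 motifs on either strand, with 0 bases shared by overlapping matches in these windows:
Clec7a: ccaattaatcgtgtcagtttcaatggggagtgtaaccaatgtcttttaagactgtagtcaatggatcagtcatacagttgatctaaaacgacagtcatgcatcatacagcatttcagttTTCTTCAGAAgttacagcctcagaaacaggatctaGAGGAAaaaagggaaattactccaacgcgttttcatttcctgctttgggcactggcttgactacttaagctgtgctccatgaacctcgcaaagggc
Clec4d: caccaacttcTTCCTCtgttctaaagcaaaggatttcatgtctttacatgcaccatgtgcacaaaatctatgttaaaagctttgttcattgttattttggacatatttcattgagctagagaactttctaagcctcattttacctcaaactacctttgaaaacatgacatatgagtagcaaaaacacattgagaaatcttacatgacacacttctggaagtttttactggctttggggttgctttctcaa
Clec4e: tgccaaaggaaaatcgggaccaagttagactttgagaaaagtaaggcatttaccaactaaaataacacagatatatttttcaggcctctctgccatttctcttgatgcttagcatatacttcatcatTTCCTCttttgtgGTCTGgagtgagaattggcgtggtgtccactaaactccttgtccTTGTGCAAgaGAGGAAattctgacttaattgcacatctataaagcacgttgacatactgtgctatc
Clec4a1: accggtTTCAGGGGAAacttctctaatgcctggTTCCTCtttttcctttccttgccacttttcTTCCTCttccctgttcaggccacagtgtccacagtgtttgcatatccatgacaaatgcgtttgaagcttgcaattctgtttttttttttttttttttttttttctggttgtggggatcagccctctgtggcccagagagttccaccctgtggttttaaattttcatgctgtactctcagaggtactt
The motifs were the core of the macrophage factor SPI1 (GAGGAA), and those of C/EBP (TTGCNNAA), STAT6 (TTC and GAA with 4 bases between), AP-1 (TGANTCA) and SMAD factors (CAGAC). Of 27025 mouse promoters of this length 23.1% held the SPI1 core, 9.55% the C/EBP, 5.86% the STAT6, 6.87% the AP-1 and 42.1% the SMAD letters. Clec7a, which was higher in co-culture, had 1 SPI1 and 1 STAT6 match; Clec4a1, which was lower, had 2 SPI1 matches and 1 STAT6 match; Clec4d had 1 SPI1 match; and Clec4e had 2 SPI1, 1 C/EBP and 1 SMAD match. A match describes letters and not a bound site.

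The values are normalized counts, that is, gene reads divided by a size factor for each library. Library depth was 133.8 to 308.8 M reads (M, 1e6) in co-culture, 46.8 to 151.6 M with TGF-β and between 73.4 and 135.6 M in monoculture, and 1 read was worth 0.346 to 2.27 normalized counts. The macrophage markers Csf1r, Itgam, Fcgr1, Cd68, Mertk, Lyz2, Cd14 and Emr1 (now Adgre1) had reads in all 9 libraries, with sums between 1201930 and 1561670 in co-culture, between 1146330 and 1328180 with TGF-β and between 949219 and 1078660 in monoculture. Lyz2 made up most of these sums. Of these 8 markers 2 rose (Mertk and Lyz2) and 2 fell (Emr1, -0.69, and Cd14, -1.11) in co-culture against monoculture. In that comparison 15.9% of all tested genes rose and 15.0% fell. Fibroblast markers, 16 of 17 in the table, summed to between 8289 and 12049.6 in co-culture, between 43.6 and 155 with TGF-β and between 55.0 and 148 in monoculture. The fibroblast markers Lum and Thy1 were at 0 in every TGF-β and monoculture sample. In co-culture Thy1 averaged 66.3, and Lum, which was not tested, had 0.346, 0 and 7.97. All 14 tested fibroblast markers were called higher in co-culture against monoculture. Only 3 of them passed the filter on low values outside co-culture, so the others were tested because of their co-culture values and had to be higher there. By Y-linked and Xist reads, replicate 1 of each condition was male and replicates 2 and 3 were female, and Y-linked reads in the female co-culture samples stood at 0.559% and 0.557% of the male mean, against 0% with TGF-β and 0 to 0.0118% in monoculture. Among other cells that express these lectins, neutrophil markers summed to between 2332 and 2627 in co-culture, between 2134 and 2337 with TGF-β and between 1817 and 2257 in monoculture, with Csf3r and Mmp8 the most abundant. Elane and Retnlg were at 0 in every TGF-β and monoculture sample and at 3.99 or below in co-culture. Dendritic cell markers summed to between 4284 and 5344 in co-culture, between 4001 and 4661 with TGF-β and between 2860.5 and 3725 in monoculture. Bst2 made up most of that sum, while Kit and Ciita fell in co-culture against monoculture (log2 fold changes -3.62 and -1.63). Monocyte markers summed to between 2172 and 2369 in co-culture, between 3267 and 3614 with TGF-β and between 2157 and 2616 in monoculture. The sum of listed glial markers, between 19995 and 26279.9 in co-culture, between 54351 and 58078 with TGF-β and between 64310.6 and 80087.5 in monoculture, was set by Pmp22 and Mbp. Of 13 tested glial markers 6 rose and 5 fell in co-culture against monoculture, where 15.9% of all tested genes rose and 15.0% fell. Only 8 of the 13 passed the filter on low values outside co-culture. The Schwann cell genes Sox10 (147 in co-culture and 0.258 in monoculture) and Ngfr (234 in co-culture and 0 in monoculture) were among those that rose. Both passed that filter through the co-culture samples alone, so they had to be higher there. The sum of listed sensory neuron markers, between 612 and 855 in co-culture, between 8086 and 10756 with TGF-β and between 8765 and 10058 in monoculture, was set by Uchl1. Of 5 tested sensory neuron markers 1 rose and 1 fell in co-culture against monoculture, beside 15.9% and 15.0% of all tested genes. Uchl1 fell (log2 fold change -4.13) and Tubb3 rose (92.4 ± 8.03, against 27.0 ± 24.9 in monoculture, adjusted p = 0.00562, limma). Nefm, which was not tested, had 2.77, 14.1 and 31.9 in co-culture and averaged 0 in monoculture. These genes were named after their values were seen. The part of transcripts of other cells in the receptor results was not tested.

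Against monoculture, co-culture with neurons gave a receptor set in which Clec4n and Clec7a were higher and Clec10a, Mgl2, Clec12a, Clec4a1 and Clec4d were lower. TGF-β gave the Clec4n, Clec10a and Mgl2 changes in the same direction and by smaller amounts, and the other 7 receptors did not pass the test. By limma with Benjamini-Hochberg adjustment over all tested genes, 2 of 10 rose and 5 of 10 fell in co-culture, 1 rose and 2 fell with TGF-β, and 2 were higher and 6 lower in co-culture than with TGF-β. Mgl2, among those that fell with either exposure, passed the filter on low values only because of its monoculture samples. Over all tested genes 30.8% were called in co-culture against monoculture, 2.52% with TGF-β against monoculture and 25.3% in co-culture against TGF-β. The TGF-β share, 412 genes, depends on single samples. Limma called 165 genes without TGF-β 1, 247 without TGF-β 2, 939 without TGF-β 3, 269 without monoculture 1 and 249 without monoculture 2. DESeq2 called 907. By direction these were 15.9% higher and 15.0% lower in co-culture, 1.13% higher and 1.39% lower with TGF-β, both against monoculture, and 13.4% higher and 11.9% lower in co-culture against TGF-β. The samples of the compared groups did not overlap for 9 of the 10 receptors in co-culture against monoculture (45.0% of all tested genes), for 4 with TGF-β against monoculture (16.9%) and for 8 in co-culture against TGF-β (41.0%). The median log2 fold change of the 10 was -0.66 in co-culture against monoculture, where that of all tested genes was 0.03, and the median size of the change without its sign was 1.26, where that of all tested genes was 0.27. With TGF-β against monoculture the medians with sign were 0.00 for the 10 and -0.01 for all genes, and without sign 0.25 and 0.15. Each called receptor, 7 in co-culture against monoculture, 3 with TGF-β against monoculture and 8 in co-culture against TGF-β, had the same sign within replicate 1 as within replicates 2 and 3. That had to be so, since the compared groups did not overlap for any of these called receptors. Both effects against monoculture use the same 3 monoculture samples. Fewer cells that carry a transcript and less of it in each cell cannot be told apart in these bulk libraries.

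**Figure D1:**
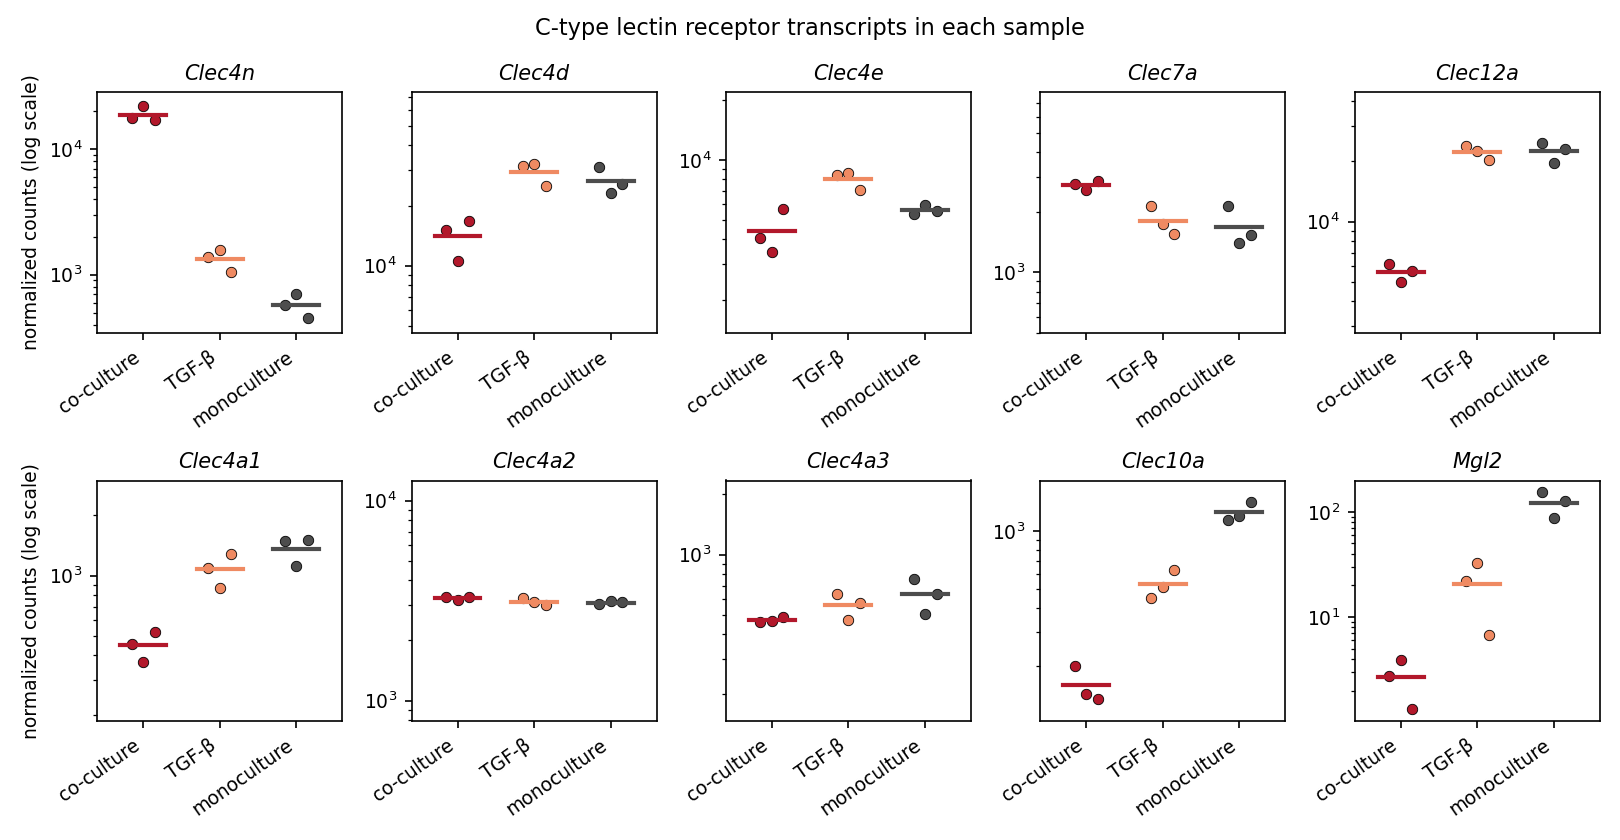
Normalized counts (log scale) of the 10 receptors, one panel per gene, with a point per sample and a line at the mean of each group's 3 samples; co-culture, TGF-β and monoculture stand from left to right. Clec4n sits between 17123 and 21991 in co-culture and at 1569 or below in the other samples, Clec10a and Mgl2 are lowest in co-culture and next lowest with TGF-β, and Clec4a2 stays between 3016 and 3296 everywhere.

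Among the receptors that signal through Fcer1g, Clec4n, which binds fungal mannans, had 17599.9, 21991 and 17123 normalized counts in co-culture, 1386, 1569 and 1048 with TGF-β, and 572, 703 and 449 in monoculture. Every co-culture sample lay above every TGF-β sample, and every TGF-β sample above every monoculture sample. The level averaged 18904.5 ± 2684 in co-culture, 1334 ± 264 with TGF-β and 575 ± 127 in monoculture (SD, n = 3 each). The log2 fold change was 5.03 ± 0.18 in co-culture against monoculture (estimate ± SE, adjusted p = 2.27e-09, limma), a 32.9-fold ratio of means, and 1.20 ± 0.18 with TGF-β against monoculture (adjusted p = 0.00435, limma), a 2.32-fold ratio. Co-culture was also above TGF-β, by 3.83 ± 0.18 (adjusted p = 4.44e-08, limma), a 14.2-fold ratio of means. Within replicate 1 the co-culture difference was 4.92 log2 units, and within replicates 2 and 3 it was 5.09.

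Clec4d, the partner chain that helps bring Clec4e and Clec4n to the cell surface, had 15097, 10581 and 16772 normalized counts in co-culture, 31418, 32321 and 24999.8 with TGF-β, and 31324, 23185 and 25504 in monoculture. All co-culture samples were below all others, while the TGF-β and monoculture ranges overlapped. Clec4d fell in co-culture by 0.93 on the log2 scale against monoculture (SE 0.17, adjusted p = 0.00174, limma), and the difference with TGF-β, 0.15 ± 0.17, did not pass (adjusted p = 0.768, limma; 95% interval -0.23 to 0.54). Co-culture was below TGF-β by a log2 difference of -1.08 ± 0.17 (adjusted p = 8.40e-04, limma). Clec4e, the receptor for mycobacterial cord factor, had 4075, 3471 and 5696 normalized counts in co-culture, 8386, 8607 and 7081 with TGF-β, and 5339, 5975 and 5572 in monoculture. The TGF-β samples were above all others, and the co-culture and monoculture ranges overlapped through co-culture 3. Co-culture was below TGF-β by a log2 difference of -0.89 ± 0.15 (adjusted p = 9.30e-04, limma). Neither difference of Clec4e from monoculture passed, at -0.38 ± 0.15 in co-culture (adjusted p = 0.0792, limma) and 0.51 ± 0.15 with TGF-β (adjusted p = 0.115, limma). Without co-culture 3 the first was -0.58 (adjusted p = 0.00129, limma) and without co-culture 2 it was -0.22 (adjusted p = 0.282, limma); the second passed without co-culture 2 (adjusted p = 0.0487, limma) and without co-culture 3 (adjusted p = 0.0137, limma).

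Per kilobase of annotated exon, a rough scale for setting genes side by side, Clec4n was above Clec4d in co-culture and below it in the other groups. The length is the union of all annotated exons, which can differ from that of the expressed transcript, and the order and shares below depend on it. The ratio of Clec4n to Clec4d per kb was 1.31, 2.34 and 1.15 in co-culture, 0.0497, 0.0547 and 0.0472 with TGF-β, and 0.0205, 0.0342 and 0.0198 in monoculture. Clec4n was the first of the 10 in co-culture, the fifth with TGF-β and the ninth in monoculture, where its range met that of Clec10a just above it. In co-culture Clec4n and Clec4d did not overlap, and Clec7a, Clec12a and Clec4e in the middle of the order overlapped their neighbours. With TGF-β Clec4a2, Clec4n, Clec4a1 and Clec7a overlapped their neighbours in the order, as Clec4a1, Clec7a, Clec4a3, Clec10a and Clec4n did in monoculture. The summed level of the 10 receptors averaged 26907.5 ± 672 normalized counts per kb in co-culture, 28141 ± 3099 with TGF-β and 25830 ± 3275 in monoculture (SD, n = 3 each), so these sums lay within the spread of the samples. Within that sum Clec4n made up 49.6 ± 7.98% in co-culture, 3.32 ± 0.346% with TGF-β and 1.60 ± 0.495% in monoculture, and Clec12a made up 3.76 ± 0.374% in co-culture, 14.3 ± 0.653% with TGF-β and 15.8 ± 0.747% in monoculture.

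**Figure D2:**
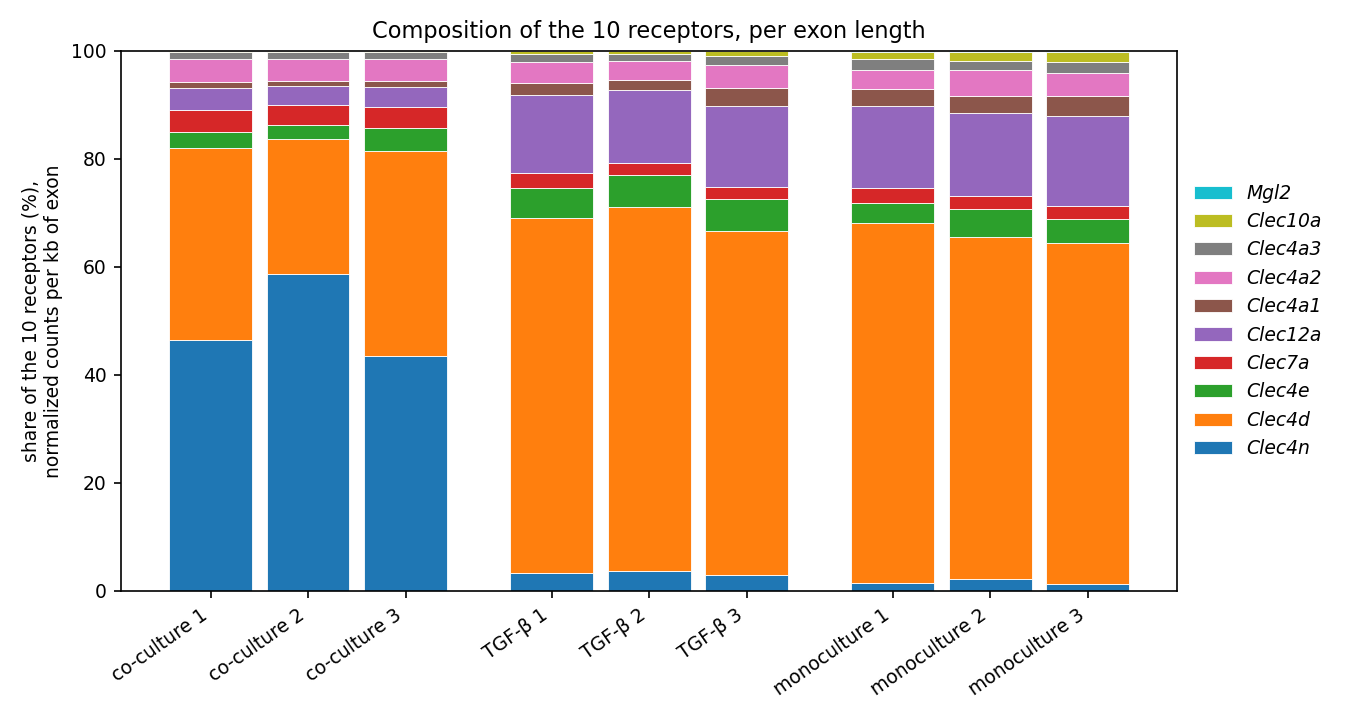
Share of each receptor in the summed normalized counts per kb of annotated exon of the 10 receptors, in percent, with one stacked bar per sample. Clec4n fills 43.6 to 58.6% of the co-culture bars and 1.25 to 3.69% of the TGF-β and monoculture bars, in which Clec4d fills 63.2 to 67.5%.

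Clec7a, the receptor for fungal β-glucan, had 2753, 2576 and 2852 normalized counts in co-culture, 2155, 1737 and 1554 with TGF-β, and 2138, 1395 and 1543 in monoculture. The co-culture samples were above all others and lay close together, and the TGF-β and monoculture samples overlapped. Clec7a rose by a log2 fold change of 0.71 ± 0.15 in co-culture against monoculture (adjusted p = 0.00277, limma) and was higher than with TGF-β by 0.60 ± 0.15 (adjusted p = 0.0108, limma). With TGF-β against monoculture the difference was 0.11 ± 0.15 (adjusted p = 0.812, limma; 95% interval -0.22 to 0.44). Within replicate 1 the co-culture difference from monoculture was 0.36, and within replicates 2 and 3 it was 0.88.

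Among the receptors with an inhibitory motif, Clec12a, which recognises uric acid crystals and dead cells, had 6138, 5010.4 and 5633 normalized counts in co-culture, 23824, 22582 and 20278 with TGF-β, and 24697, 19617 and 23179 in monoculture. Co-culture samples were all far below the others, which overlapped. Clec12a averaged 5594 ± 565 in co-culture and 22497 ± 2607 in monoculture (SD, n = 3 each) and fell by 2.00 on the log2 scale (SE 0.10, adjusted p = 5.40e-09, limma). TGF-β-treated cells averaged 22228 ± 1799.6, a log2 difference from monoculture of -0.01 ± 0.10 (adjusted p = 0.974, limma; 95% interval -0.24 to 0.21), and the co-culture level was lower than theirs by a log2 difference of -1.99 ± 0.10 (adjusted p = 1.51e-08, limma). Clec4a2 (DCIR1) stayed near one level, with 3282, 3166 and 3296 in co-culture, 3267, 3101 and 3016 with TGF-β, and 3023, 3145 and 3112 in monoculture. Its log2 difference from monoculture was 0.07 ± 0.08 in co-culture (95% interval -0.09 to 0.23, adjusted p = 0.541, limma) and 0.02 ± 0.08 with TGF-β (95% interval -0.15 to 0.18, adjusted p = 0.961, limma). The co-culture and monoculture samples of Clec4a2 did not overlap, as was so for 45.0% of all tested genes.

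Clec4a1 and Clec4a3 belong to the same DCIR subfamily as Clec4a2. Clec4a1 (DCIR4) had 454, 372 and 523 normalized counts in co-culture, 1097, 868 and 1286 with TGF-β, and 1484, 1112 and 1504 in monoculture. The co-culture samples were all below the others, and TGF-β and monoculture overlapped. The log2 fold change in co-culture against monoculture was -1.58 ± 0.17 (adjusted p = 6.67e-06, limma), and with TGF-β the difference was -0.34 ± 0.17 (adjusted p = 0.394, limma; 95% interval -0.71 to 0.03). Co-culture was also below TGF-β, by a log2 difference of -1.25 ± 0.17 (adjusted p = 9.15e-05, limma). Clec4a3 (DCIR3) had 459, 468 and 490.4 in co-culture, 634, 469.8 and 573 with TGF-β, and 752, 508 and 638 in monoculture. Its co-culture samples lay just under the monoculture range, with a log2 difference of -0.40 ± 0.16 that did not pass (adjusted p = 0.0836, limma); without monoculture 2 it was -0.54 (adjusted p = 0.0250, limma) and without monoculture 1 it was -0.26 (adjusted p = 0.285, limma). The TGF-β samples of Clec4a3 overlapped those of both other groups, with -0.17 ± 0.16 against monoculture (adjusted p = 0.709, limma), and co-culture against TGF-β gave -0.23 ± 0.16 (adjusted p = 0.352, limma).

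Clec10a and Mgl2, the galactose-type lectins, had the most negative fold changes of the 10 against monoculture with 10 added before the log, in co-culture as with TGF-β. With 50 added, Mgl2 in co-culture (-1.69) was less negative than Clec12a (-2.00). Clec10a (MGL1) had 199.9, 143 and 134 normalized counts in co-culture, 447, 509 and 625 with TGF-β, and 1146, 1195 and 1406 in monoculture, so the 3 groups did not overlap. Its log2 fold change was -2.91 ± 0.18 in co-culture against monoculture (adjusted p = 2.37e-08, limma), -1.24 ± 0.18 with TGF-β against monoculture (adjusted p = 0.00202, limma) and -1.68 ± 0.18 in co-culture against TGF-β (adjusted p = 8.76e-06, limma). Mgl2 had 2.77, 3.91 and 1.33 normalized counts in co-culture, 21.8, 32.8 and 6.82 with TGF-β, and 153, 87.5 and 126 in monoculture. These came from 8, 5 and 2 reads in co-culture, 29, 15 and 3 reads with TGF-β, and 94, 76 and 163 reads in monoculture. Mgl2 reached a value of 10 in 0 co-culture, 2 TGF-β and 3 monoculture samples. Without the monoculture samples it would not have passed the filter on low values, so it had to be lower in co-culture than in monoculture. The groups did not overlap, and the log2 fold change was -3.36 ± 0.36 in co-culture (adjusted p = 6.36e-06, limma) and -2.19 ± 0.36 with TGF-β (adjusted p = 0.00501, limma), both against monoculture. Co-culture was lower than TGF-β by a log2 difference of -1.17 ± 0.36 (adjusted p = 0.0296, limma), a call that was lost without any one of co-culture 1, 2 or 3 or TGF-β 1 or 2 (adjusted p = 0.0615 to 0.132, limma). The size of the Mgl2 change depends on the count added before the log: in co-culture against monoculture it was -1.69 with 50 added and -5.10 with 1 added, and both passed the test.

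**Figure D3:**
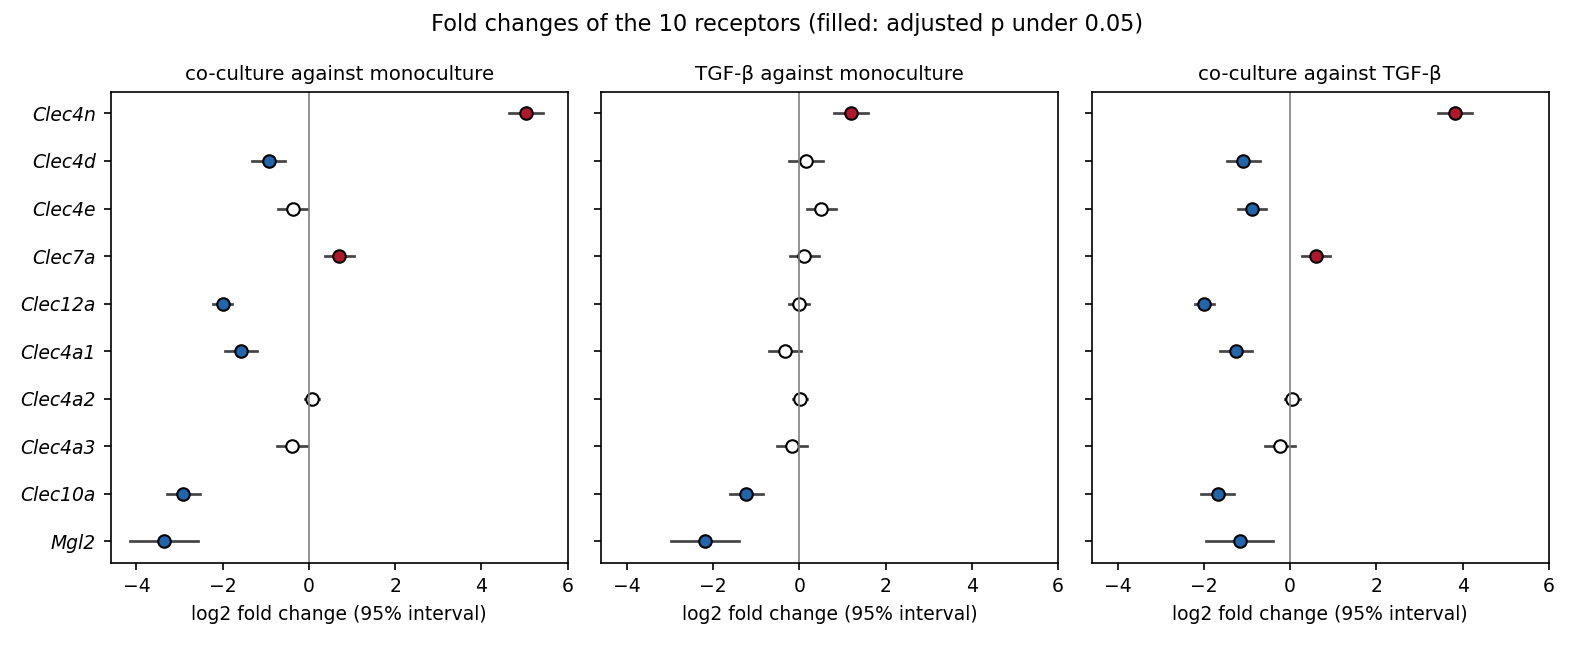
Log2 fold changes of the 10 receptors with 95% intervals from limma in the 3 comparisons; filled points passed an adjusted p of 0.05, red for higher and blue for lower. In co-culture against monoculture the points run from 5.03 for Clec4n to -3.36 for Mgl2, and with TGF-β against monoculture the filled points are Clec4n, Clec10a and Mgl2.

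Neighbouring genes of the Clec4 cluster differed in direction. From Clec4a1 to Clec4e the table lists 10 genes, of which 7 were tested, the 6 receptors there and their relative Clec4b1. Clec4n, with a log2 fold change of 5.03, lies 15.1 kb before Clec4d, which fell by 0.93, and Clec4e follows 6.5 kb later with -0.38. On the other side Clec4b1 was lower in co-culture, with 24.6 ± 3.93 against 95.7 ± 12.1 normalized counts in monoculture (SD, n = 3 each; log2 fold change -1.61 ± 0.29, adjusted p = 6.24e-04, limma) and 67.5 ± 25.5 with TGF-β. Clec4a4 had means of 2.75 in co-culture, 11.1 with TGF-β and 9.87 in monoculture and was not tested, and Clec4b2 was listed at 0 outside co-culture.

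**Figure D4:**
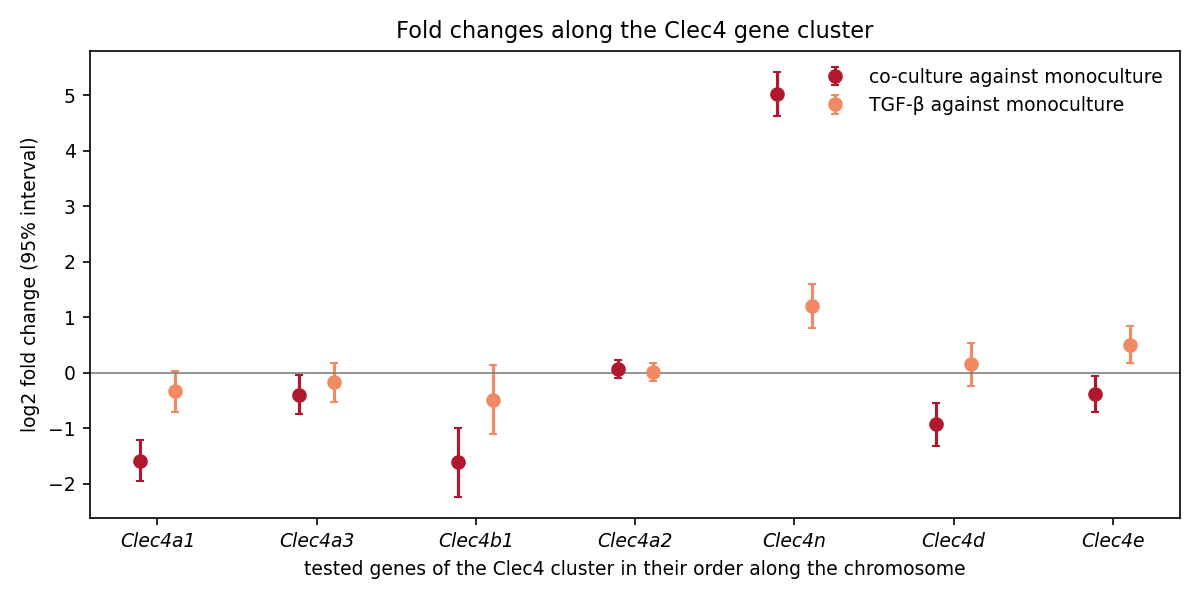
Log2 fold changes with 95% intervals of the 7 tested genes of the Clec4 cluster, in their order along chromosome 6, for co-culture against monoculture (dark red) and TGF-β against monoculture (orange). Clec4n, at 5.03 and 1.20, stands above its neighbours, and Clec4a1, Clec4b1 and Clec4d lie below 0 in co-culture.

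Other genes with C-type lectin domains were followed as a list. Of 31 listed, 25 were in the table and 18 were tested. By limma 6 rose and 2 fell in co-culture against monoculture (median log2 fold change -0.04), where 15.9% of all tested genes rose and 15.0% fell. With TGF-β against monoculture 0 of 18 were called, and 2.52% of all tested genes. With TGF-β 4 had an unadjusted p under 0.05, edgeR called 0 and DESeq2 called 3, as did limma without TGF-β 3. Clec5a (MDL-1, which signals through the adaptor Tyrobp) rose to 11589 ± 920.0 in co-culture, against 4109 ± 625 in monoculture (log2 fold change 1.50 ± 0.16, adjusted p = 1.65e-05, limma). The mannose receptor Mrc1 rose by 1.12 ± 0.12 (adjusted p = 5.81e-06, limma). Mrc2, the collagen receptor that fibroblasts also express, averaged 157 ± 39.7 in co-culture and 2.88 ± 0.508 in monoculture (3.68 ± 0.30, adjusted p = 3.82e-07, limma). It passed the filter on low values through the co-culture samples alone, so it had to differ, and fibroblast markers were higher in the same samples. The 2 that fell were Clec4b1, given above, and Clec2i (-1.01 ± 0.36, adjusted p = 0.0449, limma), which was named after its values were seen.

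Of 22 tested genes that carry the signal of the activating receptors, 10 rose and 3 fell in co-culture against monoculture, with a median log2 fold change of 0.11. With TGF-β against monoculture 0 rose and 1 fell. Over all tested genes 15.9% rose and 15.0% fell in co-culture, and 1.13% rose and 1.39% fell with TGF-β. The kinases Lyn and Src went in opposite directions: Lyn rose by 0.85 ± 0.09 (adjusted p = 6.86e-06, limma), and Src fell to 227.5 ± 46.4 in co-culture and 452 ± 88.9 with TGF-β, against 868 ± 98.4 in monoculture (-1.90 ± 0.18, adjusted p = 2.06e-06, and -0.94 ± 0.18, adjusted p = 0.0133, limma). The phospholipase Plcg2 rose by 0.38 ± 0.08 and the exchange factor Vav3 fell by 0.38 on the log2 scale (SE 0.07). Named after their values were seen as the receptors' direct partners, the adaptor Fcer1g averaged 55576 ± 3865 in co-culture and 41915 ± 1717 in monoculture (0.41 ± 0.10, adjusted p = 0.00574, limma), Card9 rose by 0.61 ± 0.14 (adjusted p = 0.00420, limma), and Syk did not pass (-0.19 ± 0.09, adjusted p = 0.121, limma). Of 8 tested genes on the inhibitory side, 1 rose and 3 fell in co-culture and 2 fell with TGF-β (median log2 fold changes 0.02 and -0.10). The lipid phosphatase Inpp5d (SHIP1) rose by 0.83 ± 0.09 in co-culture (adjusted p = 8.03e-06, limma). The adaptors Dok2 and Dok1 fell by 1.46 (SE 0.09) and 0.71 (SE 0.10), and the ubiquitin ligase Cblb fell by 0.76 (SE 0.11); Dok2 and Cblb also fell with TGF-β, by 0.54 (SE 0.09) and 0.59 (SE 0.11). The phosphatases Ptpn6 and Ptpn11, which Clec12a and Clec4a2 recruit, were both at 0.02 in co-culture and did not pass.

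**Figure D5:**
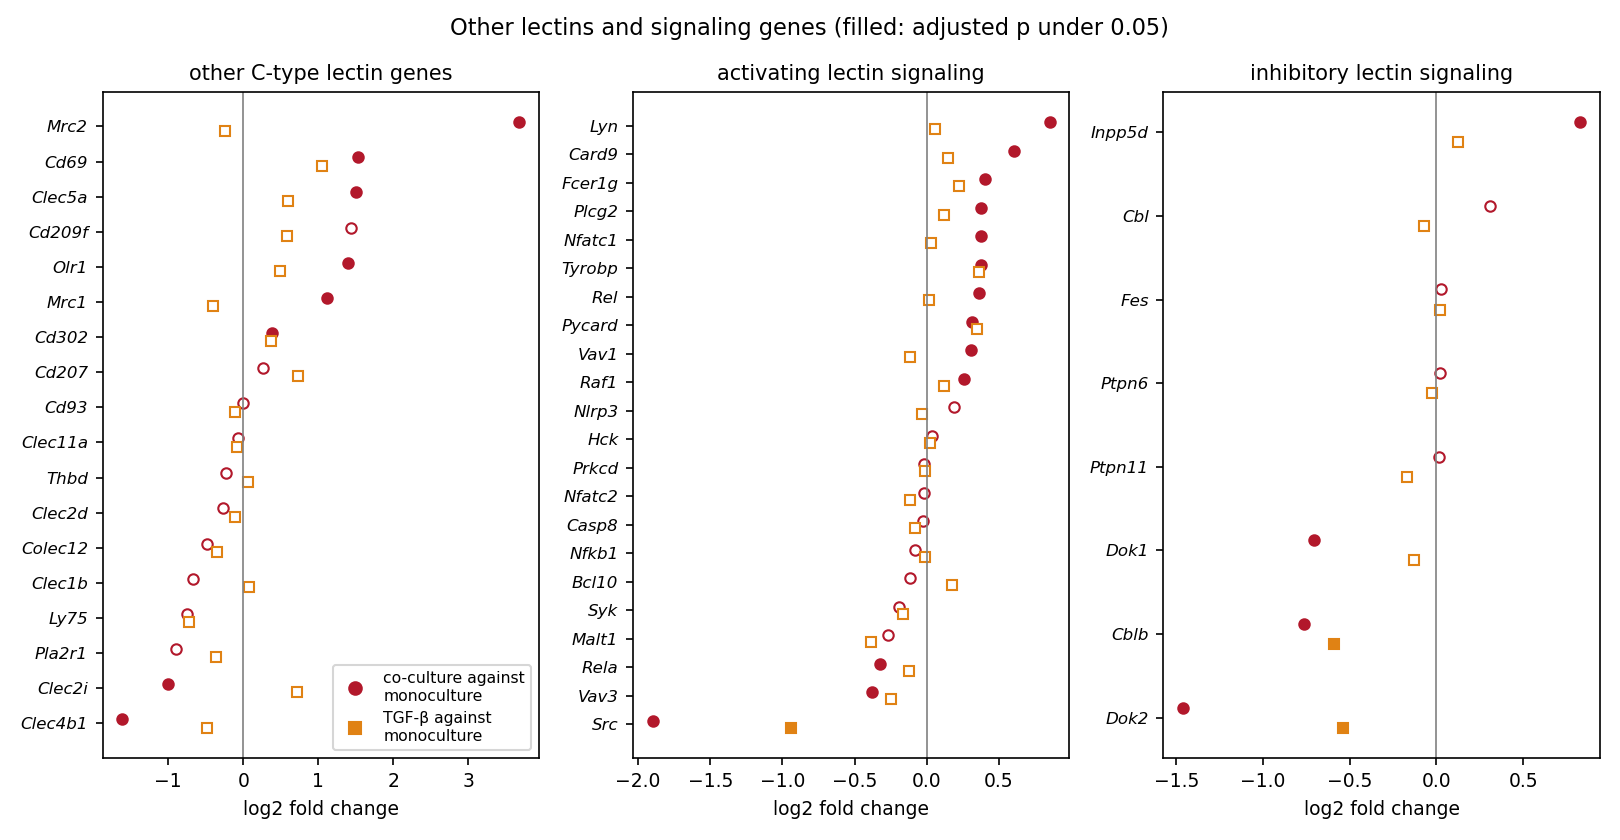
Log2 fold changes of tested genes from 3 lists, other C-type lectins, activating signaling and inhibitory signaling, in co-culture against monoculture (dark red circles) and TGF-β against monoculture (orange squares); filled symbols passed an adjusted p of 0.05. All signaling genes but Src, at -1.90, and Dok2, at -1.46, lie within 1 log2 unit of 0 in co-culture.

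Of 12 tested genes that activating lectins are known to induce, 4 rose and 8 fell in co-culture against monoculture (median log2 fold change -0.995). With TGF-β 0 rose and 2 fell (median -0.51). The shares of all tested genes were 15.9% higher and 15.0% lower in co-culture, and 1.13% higher and 1.39% lower with TGF-β. The cytokine gene Il1b was listed at 0 in all 3 monoculture samples, had 3.01, 10.9 and 18.2 with TGF-β and averaged 263 ± 40.4 in co-culture. It would not have passed the filter on low values without the co-culture samples, so it had to be higher there. The growth factor gene Csf1 rose to 694 ± 82.3 in co-culture, against 231 ± 77.8 in monoculture (1.58 ± 0.22, adjusted p = 6.87e-05, limma). Il10, an anti-inflammatory cytokine, fell to 53.5 ± 5.24 in co-culture and 138 ± 35.1 with TGF-β, against 273 ± 11.0 in monoculture, and the chemokine Ccl3 fell by 0.98 (SE 0.11). Egr2 fell with TGF-β by 1.06 (SE 0.21, adjusted p = 0.0144, limma).

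The genes whose profile over the 9 samples was most like that of a member were found by the root mean square difference of centred log2 values, among tested genes above the median level, without numbered gene models, mitochondrial, ribosomal protein and histone genes. Nearest to Clec4n were Gcnt2, a glycosyltransferase (0.33 log2 units), Spsb1 (0.44) and the tetraspan gene Ms4a4a (0.47). Gcnt2 averaged 5577 normalized counts in co-culture, 286 with TGF-β and 114 in monoculture. Nearest to Clec10a were the kinase Plk2 (0.29), the laminin chain Lama3 (0.29) and the ribonuclease Rnase6 (0.33), with Plk2 at 3508 in co-culture, 15188 with TGF-β and 33073 in monoculture. Nearest to Clec7a were Hnrnpa1 (0.13), Dpy19l4 (0.14) and Smim13 (0.14).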

How the data were processed

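RNA of 9 samples (10 ng each) went into SMART-Seq libraries that keep the strand (per the labels' protocols). The submitters' processing notes name bcl2fastq 2.20, STAR 2.7.3, DESeq2 1.24.0, R 3.6.1 and mm10, with no role or order; the counter, its use of strand, its annotation and any filter are not given in the sources used here. The deposited signal values, 1 per gene and sample, are read counts divided by a size factor: 100% of values in each library were whole multiples of its smallest value within 0.05 of a read. Because these values are scaled, limma 3.58.1 (R 4.3.3; trend and robust empirical Bayes) was used on log2(value + 10), which understates the changes of low genes. All 9 samples entered one fit, limited to the 16328 genes that reached a value of 10 in 3 or more samples, Benjamini-Hochberg adjustment over all tested genes, and a call at an adjusted p of 0.05. On the recovered reads edgeR 4.0.16 with TMM called 4947, 390 and 4019 genes and DESeq2 1.42.0 called 5390, 907 and 4502, where limma called 5033, 412 and 4128, for co-culture and then TGF-β, each against monoculture, and last for co-culture against TGF-β. Levels per kb use the union of GENCODE M21 exons; 24335 of 24607 identifiers matched. The receptors and lists were chosen with earlier results of these data known. Named were all 10 receptors and, per list, the 4 called genes of smallest p in co-culture and the 2 with TGF-β, against monoculture. Clec2i, Fcer1g, Card9, Syk, Ptpn6, Ptpn11, Mmp12, Ccl22, Irf4, Stat6 and single cell type markers were named after their values were seen. One listed macrophage marker and 1 listed glial marker are not reported here. The fit was tested on simulated data.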

Additional observations from a re-analysis of the deposited data

How the results depend on the processing

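The receptor counts stayed within 1.5 times under every alternative: 7 to 8 in co-culture against monoculture, 3 to 4 with TGF-β against monoculture and 7 to 8 in co-culture against TGF-β. Of 600 single-receptor values over the 20 alternatives, 587 kept their side of the threshold, 7 gained a call and 6 lost one. No called value changed sign; 7 uncalled ones did, all with TGF-β against monoculture (Clec4a2, Clec7a and Clec12a, between -0.02 and 0.06). The gains were Clec4e against monoculture in co-culture without co-culture 3 and with TGF-β in 4 alternatives (DESeq2, adjusted p = 0.0221; only the 6 samples compared, 0.0162, limma; without co-culture 2 or 3), and Clec4a3 in co-culture with DESeq2 (adjusted p = 0.0457) and without monoculture 2. The losses were Mgl2 in co-culture against TGF-β, with 50 added before the log (-0.40, adjusted p = 0.115, limma) and without any of 5 samples. Over all genes, TGF-β against monoculture called 412, with 907 by DESeq2 and 165 to 939 when 1 sample was left out (165 without TGF-β 1, 247 without TGF-β 2, 939 without TGF-β 3, 269 without monoculture 1 and 249 without monoculture 2); the cause was not tested. Whether replicate numbers pair the samples is not settled: number 1 was male and numbers 2 and 3 female in each group, while 3 of 9 same-number pairs had correlated deviations over 0.1 (range -0.147 to 0.372). With the number as a block 4926, 397 and 3956 genes and 7, 3 and 8 receptors were called. Another scaling (TMM) shifted the median of all genes by under 0.1. Depth limits Mgl2 most, with 2 to 8 reads per co-culture sample.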

Other observations

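Genes of the interleukin 4 response, the programme that Clec10a and Mgl2 are often used to mark, were followed as a list. By limma, of 14 tested, 6 rose and 4 fell in co-culture against monoculture (median log2 fold change 0.49), and 1 rose and 0 fell with TGF-β. The shares of all tested genes were 15.9% higher and 15.0% lower in co-culture, and 1.13% higher and 1.39% lower with TGF-β, each against monoculture. The receptor chain Il4ra averaged 68807 ± 5708 normalized counts in co-culture, 12332 ± 1049 with TGF-β and 10077 ± 1515 in monoculture (SD, n = 3 each), with a log2 fold change of 2.78 ± 0.11 in co-culture against monoculture (adjusted p = 4.00e-10, limma). Il13ra1, a partner chain, rose by 2.21 ± 0.19 and the transglutaminase Tgm2 by 3.99 ± 0.16 in co-culture, and Tgm2 rose by 0.94 ± 0.16 with TGF-β (adjusted p = 0.0117, limma). Fibronectin (Fn1), which fibroblasts also make, rose by 7.26 ± 0.56 in co-culture, where fibroblast markers were higher. The part of fibroblasts in this was not tested. The 4 that fell in co-culture, named after their values were seen, were Mmp12, Ccl22, Irf4 and Stat6. Log2 fold changes were -3.22 ± 0.32 for Mmp12, -1.05 ± 0.34 for Ccl22 and -0.33 ± 0.08 for Stat6. Irf4 averaged 101 ± 12.5 in co-culture and 216 ± 48.1 in monoculture (adjusted p = 0.0112, limma). Without its monoculture samples Ccl22 would not have passed the filter on low values, so it had to be lower in co-culture.

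Of 12 tested transcription factors of myeloid lectin genes, 6 rose and 4 fell in co-culture against monoculture, by limma. In that comparison 15.9% of all tested genes rose and 15.0% fell. With TGF-β against monoculture limma called 0 of 12, with 4 at an unadjusted p under 0.05, 0 called by edgeR and 2 by DESeq2. Klf4 averaged 629 ± 143 in co-culture and 2622 ± 135 in monoculture (SD, n = 3 each; -2.07 ± 0.15, adjusted p = 1.37e-07, limma), and Rbpj, the nuclear partner of Notch, fell by 0.71 (SE 0.09). Cebpa rose by 0.67 ± 0.11 and Stat3 by 0.58 ± 0.10.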
